A study of Mus musculus with 8 samples.

Results

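The genes for 10 ion channels of microglia, the resident immune cells of the brain, were followed in RNA from cultured cells with and without lipopolysaccharide (LPS), a bacterial wall component that activates them. They encode 5 potassium channels (Kcnj2, Kcnk13, Kcnk6, Kcnn4 and Kcna3), the voltage-gated proton channel Hvcn1, 3 cation channels of the TRP family (Trpm2, Trpm4 and Trpv2) and the calcium channel pore Orai1. The genes were listed by name and found by Ensembl identifier, through the GENCODE vM21 gene symbols, among the 52636 genes of the deposited table. All 10 passed the filter on low counts that left 13847 genes for testing.

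The cells were primary microglia of wild-type (WT) mice, of strain C57BL/6 in the labels, while the methods name C57BL/6N for wild-type pups. Both groups carried the same history: neonatal brains taken at P2-P3 were grown as mixed glia, and microglia shaken off the astrocyte layer were kept in medium with serum and the growth factor CSF-1. They then received vehicle or 5 µg/ml LPS for 24 h, and 4 libraries of each group were sequenced. The labels call these biological replicates, but no source used here says whether they came from separate cultures or litters, so p-values measure the spread between these libraries, which may be technical. Such cells are a model of neonatal microglia outside the brain, with whatever other glia the shaking carried along.

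Potassium channels set the resting voltage of microglia and let potassium leave the cell, a step known to precede the release of interleukin-1β through the NLRP3 inflammasome. A negative voltage also drives calcium in through Orai1, which opens when the sensors STIM1 and STIM2 find the endoplasmic reticulum empty of calcium. Hvcn1 carries out the protons that the NADPH oxidase leaves behind, and TRP channels admit calcium or sodium in answer to ADP-ribose, internal calcium or other signals.

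Library totals lay between 20071921 and 30604447 counts. The LPS label was checked with Nos2, the inducible nitric oxide synthase, at 1.02 CPM ± 0.461 (SD, n = 4) with vehicle and 11584 ± 452 with LPS, and with Il1b, which encodes interleukin-1β, at 41.3 ± 27.6 and 3426 ± 1637. CPM are counts per 1000000 of a library size scaled by TMM, which sets the libraries to a common level through the bulk of the genes. The TMM factors did not overlap between groups (1.21 to 1.32 with vehicle, 0.701 to 0.833 with LPS). With plain library totals in their place the median log2 fold change of all tested genes fell by 0.68, from -0.11 to -0.79, so each rise of a channel is also given on that scale, and other genes where they lose their call or sign. The 10 microglia markers summed to between 8256 and 9449 CPM with vehicle and between 2141 and 2555 with LPS. Of these, 7 fell, among them Cx3cr1, the fractalkine receptor (log2 fold change -7.26), and Itgam, which encodes CD11b, rose (log2 fold change 1.94). Of the 10, 1 averaged under 10 counts with LPS and reached that limit with vehicle, so it was tested through the vehicle libraries alone. In bulk RNA, fewer cells of a type and less RNA per cell cannot be told apart.

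Of the 10 channels, 6 fell and 3 rose after LPS by edgeR's quasi-likelihood test (adjusted p under 0.05 over all tested genes), and Kcna3 was not called. Over all tested genes 64.1% were called, 33.8% lower and 30.3% higher, so a called channel was no exception in these cells. The median log2 fold change of the 10 was -0.97, against -0.11 over all tested genes. In 7 of the 10 the CPM of the groups did not overlap, as in 60.2% of all tested genes. Kcnn4, Kcna3 and Orai1 were the ones that overlapped.

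**Figure D1:**
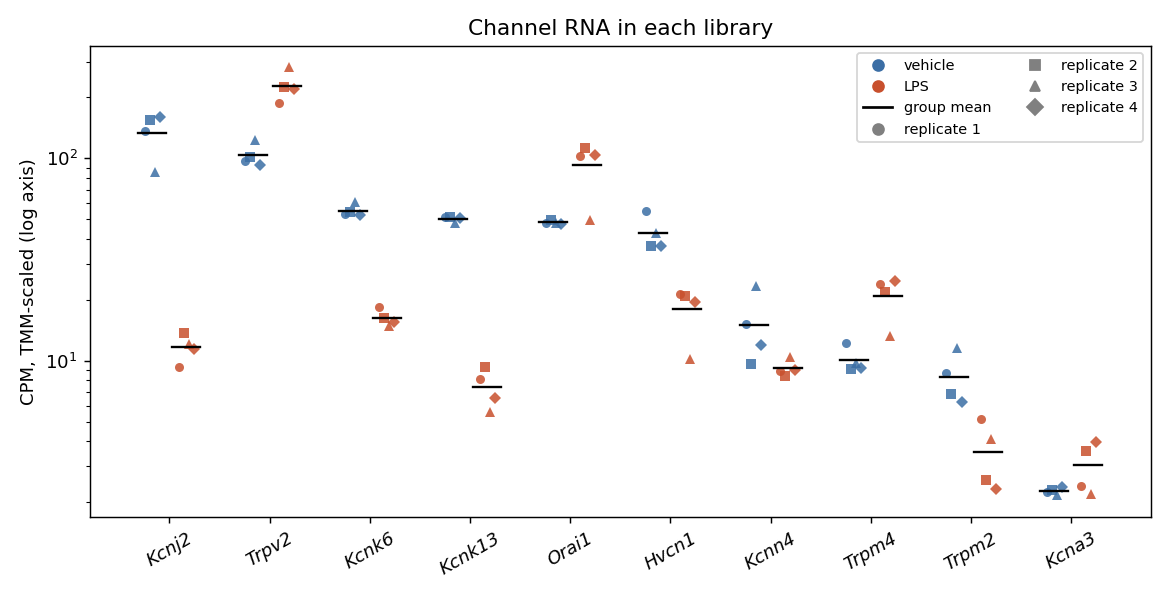
CPM (TMM-scaled, log axis) of the 10 channels in each library, with vehicle in blue, LPS in orange, a marker shape per replicate number and a line at each group mean. Kcnj2 drops from between 85.3 and 159.7 CPM to between 9.34 and 13.7, while LPS replicate 3 lies apart from the other LPS libraries for Orai1 (49.5) and Hvcn1 (10.2).

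Kcnj2 encodes Kir2.1, an inward rectifier among the potassium channels of microglia, and it fell the most of the 10. The gene lies at chromosome 11, 111066164 to 111076821, plus strand of GRCm38, in 2 exons. Vehicle replicates 1 to 4 held 137, 155, 85.3 and 159.7 CPM, and LPS replicates 1 to 4 held 9.34, 13.7, 12.1 and 11.5. Every LPS library was far below every vehicle library, and vehicle replicate 3 was the low one of its group. The log2 fold change was -3.52 (SE 0.22, adjusted p = 1.17e-06), an 11.5-fold lower level. Vehicle replicate 3 also had the lowest summed markers of oligodendrocyte precursor cells (OPC, 18.3 CPM against 51.8 to 82.1 in the other vehicle libraries), neurons (12.5 against 32.1 to 43.1) and astrocytes (45.5 against 64.9 to 78.4). Its microglia markers were the highest, at 9449 CPM against 8256 to 8514. So were its summed markers of endothelium (22.9 CPM against 10.7 to 17.7) and fibroblasts (3.52 against 0.497 to 2.38). Its oligodendrocyte sum (82.7 CPM) lay within the 79.3 to 114 of the other vehicle libraries. With LPS the OPC sum was 1.87 to 20.8 CPM, and the part of other cells in the Kcnj2 values was not tested.

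The promoters of Kcnj2, Kcnk13 and Trpv2 are shown because these genes had the 2 largest falls and the largest rise of the 10. Each run is 300 bases of the RefSeq promoter table (GRCm38.p6), from 250 bases before the start site to 50 after it, 5′ to 3′ on the plus strand, which is the strand of all 3 genes. Capitals mark matches to a motif searched.
Kcnj2 chr11:111065914-111066213: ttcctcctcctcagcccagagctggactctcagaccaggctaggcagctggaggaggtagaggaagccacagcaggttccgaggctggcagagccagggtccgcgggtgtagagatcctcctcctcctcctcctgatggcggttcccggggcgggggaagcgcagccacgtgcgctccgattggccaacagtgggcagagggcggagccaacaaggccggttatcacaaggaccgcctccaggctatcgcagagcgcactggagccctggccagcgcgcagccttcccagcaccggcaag
Kcnk13 chr12:99964249-99964548: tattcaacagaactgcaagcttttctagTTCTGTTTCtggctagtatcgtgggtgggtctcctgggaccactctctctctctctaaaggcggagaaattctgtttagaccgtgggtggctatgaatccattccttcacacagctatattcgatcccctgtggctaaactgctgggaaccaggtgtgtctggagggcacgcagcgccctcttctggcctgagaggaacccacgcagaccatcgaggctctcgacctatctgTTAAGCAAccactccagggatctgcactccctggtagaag
Trpv2 chr11:62574236-62574535: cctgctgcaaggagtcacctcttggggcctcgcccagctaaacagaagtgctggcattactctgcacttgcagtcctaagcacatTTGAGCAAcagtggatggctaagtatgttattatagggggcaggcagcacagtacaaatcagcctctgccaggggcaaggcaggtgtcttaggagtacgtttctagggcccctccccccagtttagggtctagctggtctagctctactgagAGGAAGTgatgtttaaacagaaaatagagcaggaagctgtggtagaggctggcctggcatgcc
The motifs searched on both strands were AP-1 as TGANTCA, C/EBP as TTGCNNAA, PU.1 as AGGAAGT, the NF-kB element as GGANTTTCC, IRF as GAAANNGAA and the cyclic AMP element CRE as TGACGTCA. Kcnk13 held an IRF match that begins 222 bases before the start site and a C/EBP match that begins at base 10 after it. Trpv2 held a C/EBP match from base -165 and a PU.1 match from base -13. The overlapping window of its second start site held the same pair, from bases -192 and -40 of that site, and the window of the last one held none. The matches did not overlap one another. No match lay in the Kcnj2 window, which says only that these letters are not in it. Of all 32851 promoters of this length in the table, 7.81% held the AP-1 letters, 10.8% those of C/EBP, 9.35% PU.1, 1.25% NF-kB, 8.56% IRF and 1.79% CRE. The promoters of Kcna3, Kcnn4, Trpm2 and Orai1 held none of the 6 motifs. The table had entries for 7 of the 10 channels, and Kcnk6, Hvcn1 and Trpm4 are named only. A match describes the sequence and shows no binding.

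Kcnk13 encodes THIK-1, a two-pore potassium channel that in the brain is found mainly in microglia, where it helps set the resting voltage. Its 3 exon blocks lie on chromosome 12, 99964499 to 100062682, plus strand. The vehicle libraries were close together at 51.6, 51.5, 47.9 and 50.6 CPM, and the LPS libraries held 8.14, 9.26, 5.55 and 6.55. No LPS library came near the vehicle range. Kcnk13 had a log2 fold change of -2.78 (SE 0.16, adjusted p = 7.27e-07), a 6.85-fold lower level.

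Kcnk6, which encodes the two-pore channel TWIK-2, known in macrophages for potassium efflux ahead of the inflammasome, fell less. The gene is at chromosome 7, 29221926 to 29232515, minus strand. Its CPM were 53.0, 54.1, 61.0 and 52.7 with vehicle and 18.4, 16.2, 14.8 and 15.5 with LPS. The groups were well apart, and vehicle replicate 3 was the high one. By edgeR the log2 fold change was -1.76 (SE 0.10, adjusted p = 8.90e-07).

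Kcnn4 encodes KCa3.1, the potassium channel that calcium and calmodulin open. It lies at chromosome 7, 24370263 to 24386690, plus strand. Vehicle libraries held 15.2, 9.58, 23.3 and 11.97 CPM and LPS libraries 8.92, 8.44, 10.4 and 8.98. LPS replicate 3 was above vehicle replicate 2, so the groups overlapped, and the vehicle libraries spread far more than the LPS libraries. The log2 fold change was -0.71 (SE 0.25, 95% confidence interval -1.27 to -0.14, adjusted p = 0.0318). The call was lost without vehicle replicate 1 (adjusted p = 0.0752) or 3 (log2 fold change -0.36, adjusted p = 0.115), and without LPS replicate 1, 2 or 4 (adjusted p = 0.0649, 0.0806 and 0.0713). It held without vehicle replicate 2 or 4 or LPS replicate 3.

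Kcna3 encodes Kv1.3, the voltage-gated channel known from T cells and activated microglia. Its place is chromosome 3, 107036169 to 107038070, plus strand, in a single exon. It was read from 40 to 73 counts a library. Its CPM were 2.24, 2.28, 2.16 and 2.38 with vehicle and 2.39, 3.59, 2.19 and 3.95 with LPS. LPS replicates 1 and 3 sat at the vehicle level, and replicates 2 and 4 lay above it. Its log2 fold change was 0.42 (SE 0.24, 95% confidence interval -0.13 to 0.97, adjusted p = 0.157). With library totals it was -0.25 (adjusted p = 0.423), so its sign depended on the scaling and it was called on neither.

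Because a ratio of a pair of genes within a library does not depend on scaling, unequal change of related channels was tested on log2 count ratios, by a two-sided exact permutation test over the 70 divisions of the libraries, adjusted over 5 ratios. The Kcnk13 to Kcnk6 log2 ratio went from -0.13 ± 0.15 with vehicle (SD, n = 4) to -1.16 ± 0.26 with LPS (exact permutation p = 0.0286, adjusted 0.0476). Kcnk13 RNA thus fell 2.04-fold further than Kcnk6 RNA, with all 4 LPS libraries below all 4 vehicle libraries. The Kcnj2 to Kcna3 log2 ratio went from 5.84 ± 0.37 to 1.97 ± 0.38 (n = 4, exact permutation p = 0.0286, adjusted 0.0476), again with no overlap. The Kcnn4 to Kcna3 log2 ratio went from 2.64 ± 0.60 to 1.63 ± 0.52, and its groups overlapped (n = 4, exact permutation p = 0.0571, adjusted 0.0714). This test exchanges libraries freely and does not use the pairing by replicate number. In same-numbered libraries all 3 ratios were lower with LPS in 4 of 4 pairs, by log2 differences of -1.19 to -0.73 for Kcnk13 to Kcnk6, -4.53 to -2.84 for Kcnj2 to Kcna3 and -1.19 to -0.84 for Kcnn4 to Kcna3. Exact sign flips over 4 pairs, added after seeing the data, gave p = 0.125 for each, the smallest that 4 pairs allow, so a paired test cannot reach the threshold. A permutation p of 0.0286 is the smallest that 4 against 4 libraries can give. Without vehicle replicate 3 the first and second of these differences were -1.10 and -4.05, each with the same exact permutation p of 0.0286, which adjusted to 0.0714 because another of the 5 ratios, Trpm4 to Trpm2, then had a higher p.

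**Figure D2:**
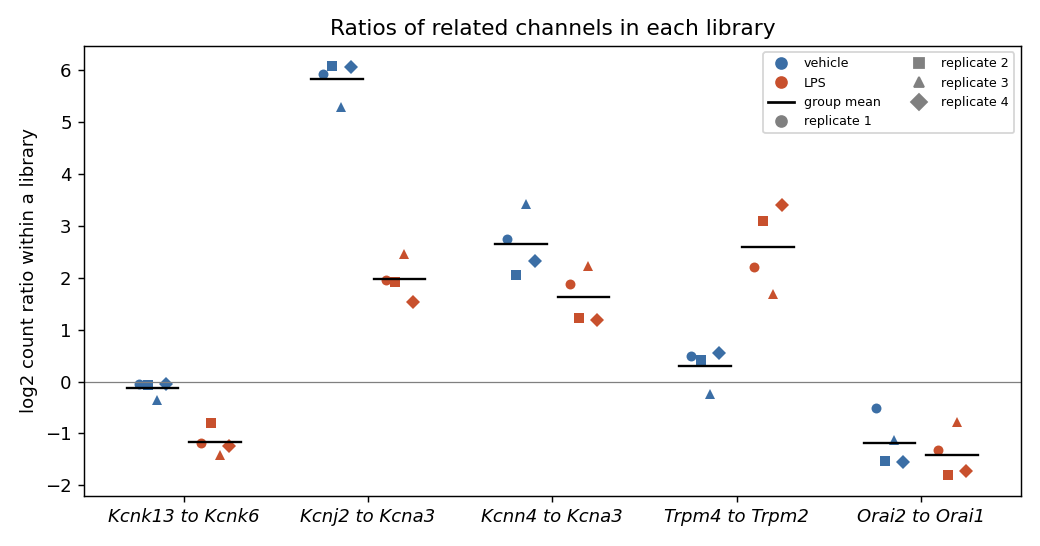
Log2 count ratio of 5 pairs of related channels within each library, with vehicle in blue, LPS in orange, a marker shape per replicate number and a line at each group mean. The Kcnj2 to Kcna3 ratio moves from a mean of 5.84 to 1.97 and the Trpm4 to Trpm2 ratio from 0.30 to 2.60, while the Orai2 to Orai1 groups overlap.

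Per length, as CPM per kilobase of exon (RPKM), the 5 potassium channels together held 58.2 ± 4.74 RPKM with vehicle (SD, n = 4, 51.4 to 61.9) and 11.8 ± 0.884 with LPS (10.8 to 12.9). Kcnj2 made up 41.8% ± 7.81 of that sum with vehicle and 18.2% ± 2.65 with LPS. Kcnk13 went from 27.9% ± 1.57 to 19.9% ± 3.18 and Kcnk6 from 23.0% ± 3.71 to 33.2% ± 3.26. The leading potassium channel by RNA was thus Kcnj2 in the vehicle libraries and Kcnk6 in the LPS libraries. Kcnn4 and Kcna3, the calcium-gated and voltage-gated channels, held 5.20% ± 2.58 and 2.05% ± 0.105 with vehicle, and 15.3% ± 2.56 and 13.4% ± 3.36 with LPS. Those larger shares stand in a sum that was itself far smaller.

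**Figure D3:**
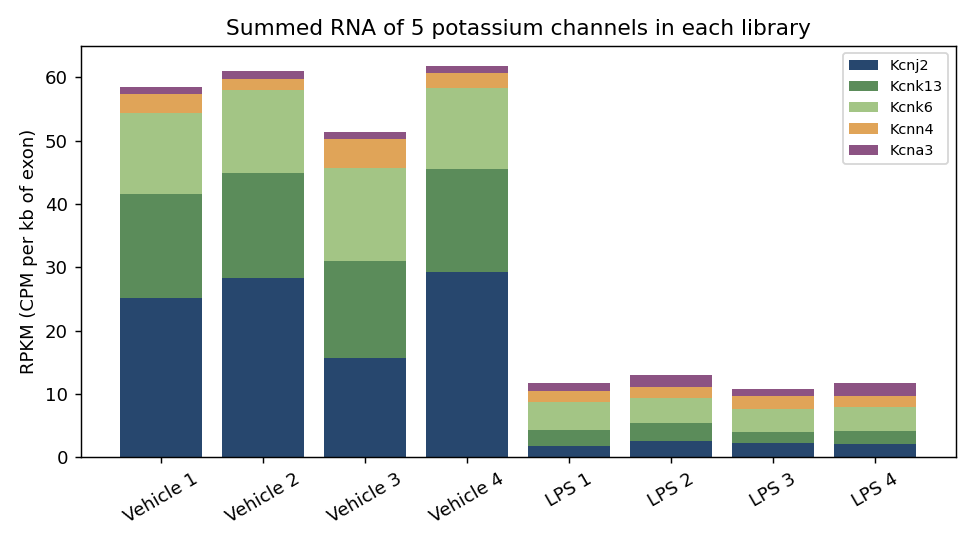
Stacked RPKM of the 5 potassium channels in each of the 8 libraries. The whole bar falls from between 51.4 and 61.9 RPKM with vehicle to between 10.8 and 12.9 with LPS, and the Kcnj2 share shrinks the most.

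Hvcn1 encodes the proton channel Hv1. The gene is at chromosome 5, 122206804 to 122242297, plus strand. Its CPM were 55.2, 36.9, 42.7 and 36.9 with vehicle and 21.4, 20.8, 10.2 and 19.6 with LPS. All LPS libraries were below all vehicle libraries, and LPS replicate 3 was the low one. This was a log2 fold change of -1.26 (SE 0.24, adjusted p = 0.00111). Its value is uncertain in one respect: 44.2% of its exonic bases overlap exons of Tctn1 on the opposite strand, and no source states whether reads were counted by strand.

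Trpm2 encodes a calcium-permeable channel that ADP-ribose opens, known for its answer to oxidative stress. Its exons lie on chromosome 10, 77907722 to 77970563, minus strand. Its CPM were 8.68, 6.85, 11.6 and 6.25 with vehicle and 5.15, 2.56, 4.10 and 2.33 with LPS. The highest LPS library stood just below the lowest vehicle library. This was a log2 fold change of -1.24 (SE 0.30, adjusted p = 0.00486).

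Trpm4, a relative that calcium opens and that passes sodium but not calcium, went the other way. Its exons lie on chromosome 7, 45302632 to 45333780, minus strand. Its CPM were 12.2, 9.13, 9.74 and 9.20 with vehicle and 24.0, 21.9, 13.3 and 24.7 with LPS. The groups did not overlap, though LPS replicate 3 was close to vehicle replicate 1. The log2 fold change was 1.06 (SE 0.20, adjusted p = 0.00126), and with library totals it was 0.40 (adjusted p = 0.145), so the call as a rise depends on the scaling. The Trpm4 to Trpm2 log2 ratio, free of scaling, went from 0.30 ± 0.37 to 2.60 ± 0.78 (n = 4, exact permutation p = 0.0286, adjusted 0.0476), a 4.90-fold shift, and it was higher with LPS in 4 of 4 same-numbered pairs (1.72 to 2.84). Without vehicle replicate 3 the difference was 2.11, and the exact permutation p was 0.0571 (adjusted 0.0952).

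Trpv2 encodes a cation channel of macrophages and microglia with a known part in phagocytosis. It lies at chromosome 11, 62574486 to 62600515, plus strand. Its CPM were 97.0, 102, 123 and 92.4 with vehicle and 188, 225, 282 and 219 with LPS. Every LPS library exceeded every vehicle library. By edgeR the log2 fold change was 1.14 (SE 0.15, adjusted p = 1.06e-04), and with library totals it was still a rise (0.46, adjusted p = 0.00360). On that scale 14.4% of all tested genes were higher and 61.1% lower, and Trpv2 was the 1 channel of the 10 called higher, beside the same count of 6 called lower. Trpv2 held 93.5% ± 0.881 of the summed RPKM of the 3 TRP channels with vehicle and 95.7% ± 1.45 with LPS.

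Orai1 encodes the pore of the calcium release-activated channel. It lies at chromosome 5, 123015074 to 123030456, plus strand, in 2 exon blocks. Its CPM were 48.2, 49.8, 47.8 and 47.6 with vehicle, the smallest relative spread of the 10 genes (coefficient of variation 2.04%), and 103, 112, 49.5 and 104 with LPS. LPS replicates 1, 2 and 4 were far above the vehicle libraries, and LPS replicate 3 lay within the vehicle range. The log2 fold change was 0.93 (SE 0.22, adjusted p = 0.00440), and without LPS replicate 3 it was 1.15 (adjusted p = 2.98e-06). With library totals it was 0.28 (adjusted p = 0.340), so this call too depends on the scaling. LPS replicate 3 was the largest library (30604447 counts) with the lowest TMM factor (0.701). In that library the summed markers of fibroblasts (21.3 CPM against 5.30 to 7.52 in the other LPS libraries) and endothelium (109.5 against 51.2 to 84.95) were highest and those of OPC (1.87 against 14.98 to 20.8) lowest, and their part in the Orai1 and Hvcn1 values was not tested. The single fibroblast marker Dcn held 19.4 of those 21.3 CPM. The endothelial genes Cldn5 and Tek had at most 3 counts in every library.

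**Figure D4:**
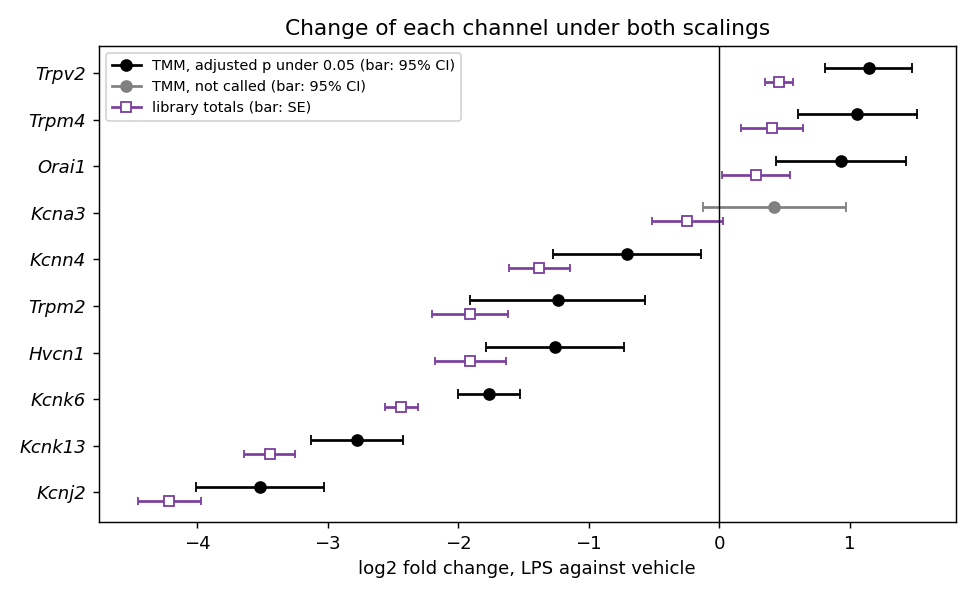
Log2 fold change (LPS against vehicle) of the 10 channels, with TMM scaling as circles (bars are 95% confidence intervals, grey where not called) and with library totals as open squares (bars are SE). Library totals move each value down; the 6 falls hold, Trpv2 stays at 0.46, Trpm4 and Orai1 come to 0.40 and 0.28, and Kcna3 crosses 0.

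In order of RNA level per length, vehicle microglia held Kcnj2 at 24.6 ± 6.24 RPKM (SD, n = 4), Trpv2 at 23.1 ± 3.02 and Orai1 at 21.1 ± 0.429. Neighbours among these overlapped, and counted on the longest transcript instead of all exons Trpv2 led with 28.2 RPKM and Orai1 (25.8) also stood above Kcnj2. Kcnk13 (16.2 ± 0.554), Kcnk6 (13.3 ± 0.943) and Hvcn1 (12.04 ± 2.42) followed, the last pair overlapping and in reverse order on the longest transcript (13.5 and 15.3). Kcnn4 (2.94 ± 1.17), Kcna3 (1.19 ± 0.0486), Trpm4 (0.930 ± 0.134) and Trpm2 (0.669 ± 0.192) were far lower, the last pair again overlapping, and on the longest transcript Trpm4 (2.33) stood above Kcna3 (1.19). With LPS, Trpv2 (51.0 ± 8.70) and Orai1 (40.2 ± 12.5) led and overlapped each other. Hvcn1 (5.05 ± 1.48), Kcnk6 (3.91 ± 0.376), Kcnk13 (2.37 ± 0.530), Kcnj2 (2.14 ± 0.334), Trpm4 (1.94 ± 0.485), Kcnn4 (1.80 ± 0.165) and Kcna3 (1.59 ± 0.457) came next. In that run each overlapped its neighbour except Kcnk6 and Kcnk13. Trpm2 was last at 0.284 ± 0.107 RPKM. On the longest transcript the LPS level of Trpm4 (4.86) stood above that of Kcnk6 (3.98), and that of Kcnn4 (2.53) above those of Kcnk13 (2.40) and Kcnj2 (2.14).

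The genes around these channels were taken from 11 lists of 196 genes, of which 132 were tested, 42 rose and 48 fell. That is 68.2%, beside 64.1% of all tested genes. Counts on the scale of library totals are given beside each list, since there the balance of rises and falls shifted towards falls. Some tested genes averaged under 10 counts with LPS and reached that limit with vehicle, so they passed the filter through the vehicle libraries alone. This held for 1 gene each of calcium pumps and exchangers, potassium channel subunits and regulators, and proton and pH transport. Other lists with such genes carry this limit below.

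Of 12 genes of store-operated calcium entry, all tested, 5 rose and 2 fell. Stim2, the more sensitive of the store sensors, rose from 33.3 ± 3.19 to 78.2 ± 11.98 CPM (log2 fold change 1.23, adjusted p = 2.74e-05) and kept its call with library totals (0.54, adjusted p = 8.17e-04). Stim1, the main sensor, was at 61.4 ± 2.44 and 64.5 ± 8.96 CPM (0.07, adjusted p = 0.600), but at -0.61 with library totals (adjusted p = 2.95e-04). Orai3, the third pore, fell from 38.8 ± 2.99 to 24.1 ± 2.78 CPM (-0.69, adjusted p = 4.59e-04). Orai2 went from 22.3 ± 8.04 to 33.5 ± 5.51 CPM (0.59, adjusted p = 0.0477), and with library totals it changed sign (-0.08, adjusted p = 0.783). The Orai2 to Orai1 log2 ratio was -1.18 ± 0.49 with vehicle and -1.41 ± 0.46 with LPS (n = 4, exact permutation p = 0.514), so no unequal change of the pair was detectable. Itpr2, a calcium release channel of the reticulum, rose (0.56, adjusted p = 0.00448, with library totals -0.13 and adjusted p = 0.294), and Plcg1, a phospholipase that makes its ligand, fell (-1.14, adjusted p = 4.77e-04). With library totals 1 gene of this list was higher and 6 lower.

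Of 9 genes for calcium pumps and exchangers, 8 were tested, 2 rose and 4 fell (0 and 5 with library totals). Atp2b1, a calcium pump of the cell membrane, fell from 489 ± 9.35 to 222 ± 61.7 CPM (log2 fold change -1.14, adjusted p = 3.57e-04). It was the most abundant of those named with vehicle, while with LPS the mean of Atp2a2 was higher (240 ± 15.3 CPM with vehicle, 309 ± 38.0 with LPS). Atp2a3, a pump of the reticulum, fell (-1.17, adjusted p = 0.0130). Slc8b1, the mitochondrial sodium-calcium exchanger, rose by 0.84 (adjusted p = 9.13e-04) and Atp2a2 by 0.36 (adjusted p = 0.0207), and with library totals these came to 0.18 and -0.30, neither called. Of 15 genes of calcineurin and NFAT, which read calcium into transcription, 14 were tested, 5 rose and 5 fell (5 and 9 with library totals). The catalytic subunits Ppp3ca and Ppp3cc moved apart, Ppp3ca from 128 ± 12.9 to 53.3 ± 17.6 CPM (-1.26, adjusted p = 4.51e-04) and Ppp3cc from 7.11 ± 0.146 to 20.3 ± 2.88 (1.51, adjusted p = 7.57e-06). A further catalytic subunit, Ppp3cb, was at 71.2 ± 1.51 and 71.2 ± 5.58 CPM (adjusted p = 0.997), but at -0.68 with library totals (adjusted p = 4.82e-05). Nfatc2 fell (-1.25, adjusted p = 3.10e-04), while Nfat5, a relative that answers salt rather than calcineurin, rose (1.65, adjusted p = 8.23e-05).

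Of 41 other potassium channels 13 were tested and 7 fell (10 with a replicate block, 11 with library totals). Of the 13, 8 averaged under 10 counts with LPS and reached that limit with vehicle, so they passed the filter through the vehicle libraries alone and these counts say little of the list. Kcnj10, which encodes Kir4.1, an inward rectifier best known from astrocytes, fell from 28.6 ± 2.69 to 4.98 ± 3.05 CPM (-2.53, adjusted p = 5.79e-04). Astrocyte markers summed to 45.5 to 78.4 CPM with vehicle and 45.9 to 132 with LPS, Kcnj10 among them, with 4 of 8 tested falling and 1, Gja1, rising from 0.873 ± 0.221 to 48.6 ± 33.2 CPM. Of these 8 markers, 1 passed the filter through the vehicle libraries alone. Without Gja1, left out after its values were seen, the sum was 44.8 to 77.4 CPM with vehicle and 11.4 to 34.0 with LPS, and the part of astrocyte RNA in the fall of Kcnj10 was not tested. The lysosomal channel Tmem175 fell a little (-0.37, adjusted p = 0.0164). Of 17 subunits and regulators of potassium channels 6 were tested, 3 rose and 1 fell (2 and 3 with library totals). Kcnab2, a β subunit that binds Kv1 channels such as Kv1.3, rose from 39.3 ± 12.04 to 103 ± 13.4 CPM (1.39, adjusted p = 2.60e-04). Its relative Kcnab1 rose from 0.427 ± 0.310 to 9.03 ± 4.50 CPM (4.38, adjusted p = 9.28e-05), and both kept their calls with library totals. Trim27, a ubiquitin ligase linked to KCa3.1, fell (-0.56, adjusted p = 0.00883).

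Of 22 other TRP channels 7 were tested, 2 rose and 4 fell (1 and 5 with library totals), and 12 had at most 3 counts in every library. Of the 7, 1 averaged under 10 counts with LPS and reached that limit with vehicle, so it was tested through the vehicle libraries alone. Mcoln2, a channel of endosomes and lysosomes, rose from 33.2 ± 12.2 to 209.6 ± 57.5 CPM (log2 fold change 2.66, adjusted p = 3.26e-05). Trpm7, a channel fused to a kinase, fell from 169.8 ± 10.2 to 98.3 ± 24.3 CPM (-0.79, adjusted p = 0.00190), and Trpv4 fell from 6.84 ± 1.83 to 2.62 ± 1.13 (-1.39, adjusted p = 0.00480). All 9 genes that supply or remove the TRPM2 ligand were tested, 3 rose and 4 fell (3 and 6 with library totals). Cd38 and Bst1, enzymes that make cyclic ADP-ribose or ADP-ribose from NAD, rose from 46.0 ± 23.6 to 754 ± 142 CPM (4.04, adjusted p = 1.07e-05) and from 7.63 ± 5.59 to 501 ± 105 (6.03, adjusted p = 1.83e-05). Parp1, the nuclear polymerase whose product is broken down to ADP-ribose, fell from 134 ± 6.77 to 29.8 ± 5.33 CPM (-2.17, adjusted p = 1.47e-06), and Adprhl2, a hydrolase of that product, fell as well (-0.90, adjusted p = 0.00717). These enzymes therefore moved in both directions while Trpm2 itself fell.

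**Figure D5:**
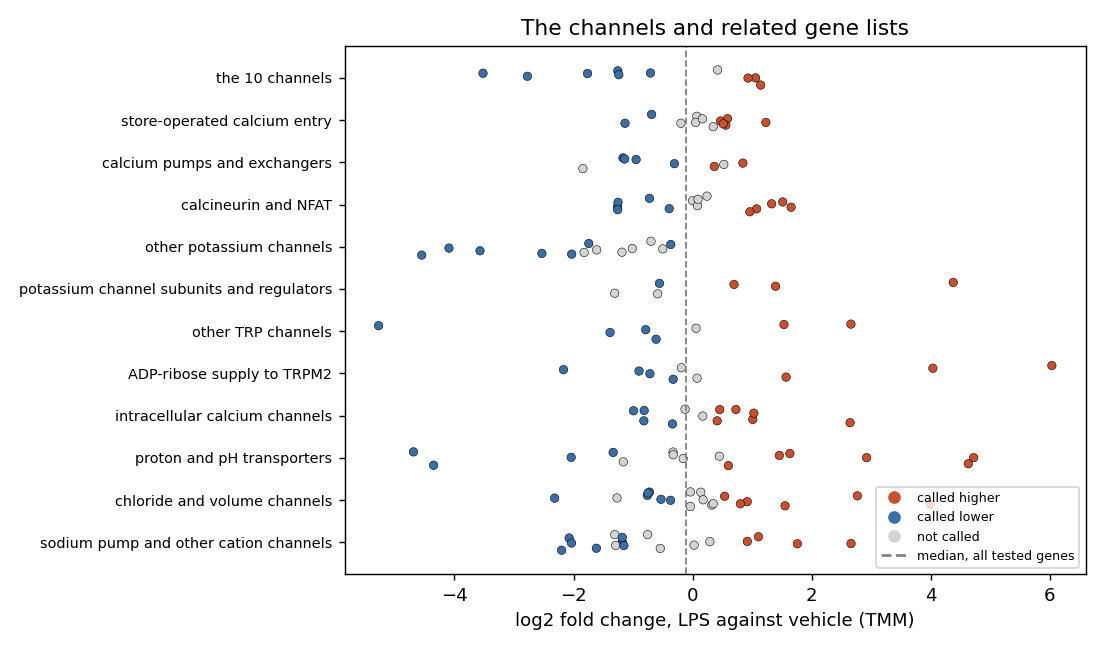
Log2 fold change of each tested gene of the 10 channels and of 11 related lists, red where called higher, blue where called lower and grey where not called, with a dashed line at the median of all tested genes (-0.11). The ADP-ribose list spans Parp1 at -2.17 to Bst1 at 6.03.

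Of 18 genes of proton and pH transport besides Hvcn1, 15 were tested, 6 rose and 4 fell (5 and 7 with library totals). Slc16a3, the lactate and proton exporter MCT4, rose from 22.2 ± 8.14 to 586 ± 182 CPM (log2 fold change 4.72, adjusted p = 2.05e-06), and Car13, a carbonic anhydrase, rose from 34.0 ± 5.68 to 843 ± 52.9 (4.63, adjusted p = 7.09e-08). The organelle sodium-proton exchangers Slc9a9 and Slc9a7 fell from 132 ± 33.8 to 5.11 ± 2.26 CPM (-4.69, adjusted p = 2.88e-06) and from 26.3 ± 3.85 to 1.29 ± 0.131 (-4.35, adjusted p = 1.05e-07). Of 15 intracellular calcium channel genes 12 were tested, 6 rose and 4 fell (3 and 6 with library totals). Mcub, the inhibitory subunit of the mitochondrial uniporter, rose from 12.99 ± 2.66 to 81.3 ± 18.2 CPM (2.65, adjusted p = 3.20e-06) and Vdac3, of the outer mitochondrial membrane, rose by 1.03 (adjusted p = 1.30e-04). Tpcn1 and Tpcn2, the two-pore channels of endosomes and lysosomes, both fell (-0.99 and -0.82, adjusted p = 4.99e-05 and 1.16e-04).

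Of 20 chloride and volume channel genes 19 were tested, 6 rose and 6 fell (3 and 10 with library totals). Lrrc8c and Lrrc8d, subunits of the volume-regulated anion channel, rose from 12.3 ± 2.03 to 195 ± 20.6 CPM (log2 fold change 3.99, adjusted p = 1.05e-07) and from 59.4 ± 8.68 to 405 ± 61.2 (2.77, adjusted p = 6.76e-07). Ttyh3 and Ttyh2, of the tweety family, fell (-2.32 and -0.76, adjusted p = 6.34e-05 and 0.00241). Of 18 genes for the sodium pump and other cation channels 17 were tested, 4 rose and 7 fell (3 and 10 with library totals), and with a replicate block 11 fell. Of the 17, 2 averaged under 10 counts with LPS and reached that limit with vehicle, so they were tested through the vehicle libraries alone. Atp1b3, a β subunit of the sodium pump, rose from 235 ± 16.2 to 1487 ± 217 CPM (2.66, adjusted p = 5.75e-07). Tmem63a, a mechanically gated channel, rose (1.76, adjusted p = 1.51e-06), and Cacna1a, a voltage-gated calcium channel pore, fell (-2.20, adjusted p = 3.97e-04).

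Markers of other cells moved with treatment as well. Of the OPC markers 3 of 5 tested fell (5 with a replicate block). Markers of oligodendrocytes, 1 of 3 tested falling, summed to 79.3 to 114 CPM with vehicle and 18.3 to 23.0 with LPS. Most of that sum was Mbp (84.0 ± 15.7 and 15.3 ± 3.54 CPM), and Mobp had at most 3 counts in every library. Neuron markers, 4 of 4 tested falling, summed to 12.5 to 43.1 and 2.85 to 16.0. Of these 4, 2 averaged under 10 counts with LPS and reached that limit with vehicle, so they were tested through the vehicle libraries alone. The same held for 1 of the 3 oligodendrocyte markers. Endothelial markers, 2 of 3 tested rising (3 with a replicate block), went from between 10.7 and 22.9 CPM with vehicle to between 51.2 and 109.5 with LPS. Fibroblast markers went from between 0.497 and 3.52 to between 5.30 and 21.3. Most of that LPS sum was Dcn (0.136 ± 0.0886 and 8.90 ± 7.07 CPM), the 1 of 2 tested that rose. Col1a1, Col1a2 and Pdgfrb had lower means with LPS and Lum a higher one. Dcn averaged under 10 counts with vehicle and Pdgfrb with LPS, so this count of rises says little. In every library these sums were far below those of the microglia markers, and their part in the channel values was not tested.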

How the data were processed

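Primary microglia were treated with vehicle or LPS, with 4 libraries a group. The authors deposited raw counts of uniquely aligned single-end reads per Ensembl gene, made with HTSeqGenie after GSNAP alignment to GRCm38. The labels and the paper name different kits and sequencers, the annotation release is not given in the sources used here, and the use of strand is not stated. Symbols, exons and positions came from GENCODE vM21 (52489 of 52636 identifiers matched).

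Counts were tested with edgeR 4.0.16 in R 4.3.3 (TMM, two-sided quasi-likelihood test, Benjamini-Hochberg over 13847 genes, threshold 0.05). The low-count filter was filterByExpr, set to 10 counts and 15 in total. Ratios used a pseudocount of 0.5. Intervals are at 95%. Tables used Python 3.11.15 and pandas 2.3.3. The fits were checked on simulated data in which 100 genes changed by a log2 of 1 and 100 by 2, equally up and down. All of them were recovered by edgeR, and 3.38% of its calls were false. With so few changes this could not test the scaling on which the Trpm4 and Orai1 calls depend. Every simulated gene was also given the same spread between libraries beyond counting noise. It was smaller than that of, for example, Kcnn4 with vehicle (coefficient of variation 39.9%), so recovery and false calls at such spreads were not tested.

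The channels and lists were chosen with earlier results of these data known. List genes named are Orai2, Orai3, Stim1, Stim2 and, per list, up to 2 largest rises and 2 largest falls that were called, did not overlap and reached a mean log2 CPM of 1. Cell type markers, the treatment checks Nos2 and Il1b and the calcineurin subunit Ppp3cb were added. One list gene that the rule names is not reported here.

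Deviations from group means of same-numbered libraries correlated with r of 0.110 to 0.363 over 8382 well-expressed genes (other pairs reached at most 0.141). All are over 0.1, so the numbers were taken to pair the libraries in the replicate block, which the main test did not use. The pairing of replicates 2 and 4 is not settled by this. Vehicle replicate 2 with LPS replicate 4 gave 0.141 and vehicle 4 with LPS 2 gave 0.122, above the 0.110 of vehicle 4 with LPS 4. No libraries were duplicates (closest pair, chi-square per degree of freedom 6.45). Alternatives were DESeq2 1.42.0, upper quartile scaling, no filter, 10 counts in every library, a replicate block, adjusted p under 0.01, a log2 change of at least 1, each library left out, a ratio pseudocount of 1, the longest transcript as length and library totals for levels. Library totals in the edgeR test were added after seeing the data.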

Additional observations from a re-analysis of the deposited data

Results flagged for a closer look

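In 4 of 30 groups of 4 libraries tested, 1 library lay far from the other 3 by Dixon's test at the 95% level, which by chance flags about 1 in 20 groups. Orai1 stood at 49.5 CPM in LPS replicate 3 against 103 to 112 in the other LPS libraries. Hvcn1 stood at 10.2 CPM in the same library against 19.6 to 21.4. Kcnk6 stood at 61.0 CPM in vehicle replicate 3 against 52.7 to 54.1 in the other vehicle libraries. The Kcnk13 to Kcnk6 log2 ratio stood at -0.35 in vehicle replicate 3 against -0.07 to -0.04.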

How the results depend on the processing

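Of 150 alternative results for the fold changes of the 10 channels, 141 kept their direction and their side of the threshold, 8 lost their call and 1 reversed. With library totals 1 channel was higher in place of 3, Kcna3 reversed to -0.25, and Trpm4 and Orai1 lost their calls. Over all tested genes library totals gave 1988 higher and 8457 lower, in place of 4191 and 4686. The 6 other losses were those of Kcnn4, under an adjusted p of 0.01 and without each of 5 libraries. With a replicate block (libraries paired by number) 3 channels were higher and 6 lower, the same calls as without it. It changed no other call of a channel. With the block 5 genes fell among the calcium pumps and exchangers, 5 of proton and pH transport and 7 of the chloride and volume channels. Among markers 8 fell for microglia and 5 for astrocytes. Leaving out 1 library at a time, the difference in log2 ratio ran from -1.15 to -0.95 for Kcnk13 to Kcnk6, from -4.05 to -3.73 for Kcnj2 to Kcna3 and from 2.03 to 2.59 for Trpm4 to Trpm2. Each missed the adjusted threshold without vehicle replicate 3 and passed it without any other library. Vehicle levels per length moved by more than 1 SD for 6 channels with the longest transcript as length and for 8 with library totals. Depth was lowest for Kcna3, at 40 to 73 counts a library, and for Trpm2 with LPS, at 43 to 88.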
